A study of Drosophila melanogaster with 3 samples.

Results

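The 10 Wingless signalling genes wg, fz, fz3, arr, dsh, sgg, Apc, arm, pan and pygo were followed through a map of where the T-box transcription factor Doc3 was recovered on chromatin in Drosophila melanogaster embryos. They are 10 of the 13945 protein-coding genes on the chromosome arms X, 2L, 2R, 3L and 3R and chromosome 4. Each was given a territory, the gene body plus 20 kb either side without the bases that lie nearer to the transcription start site (TSS) of another coding gene. The material was whole embryos, collected from 0 to 24 h, of the transgenic strain Doc3-GFP, in which Doc3 is fused to eGFP, and was used for chromatin immunoprecipitation and sequencing (ChIP-seq). The labels differ on the antibody: the sample description names one against GFP, while the antibody field names Doc3, so whether untagged Doc3 was recovered too cannot be told. There were 3 biological replicates, each a biosample of its own, and all belong to 1 group that shares the transgene and for which the labels name no treatment. The labels do not say which regulatory sequence drives the fusion, and whole embryos mix all tissues, so a region cannot be placed in a cell type. No control sample was analysed here, and no comparison between conditions exists.

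Wingless (wg) is a secreted Wnt ligand. It binds Frizzled receptors and the co-receptor Arrow (arr), and Dishevelled (dsh) passes the signal on to stop a destruction complex, which holds Apc and the kinase Shaggy (sgg), from degrading Armadillo (arm). Armadillo, the fly beta-catenin, then enters the nucleus and joins the DNA-binding factor Pangolin (pan) and the cofactor Pygopus (pygo) to switch on target genes. In the embryo the pathway patterns the segments and, with Dpp, induces the dorsal mesoderm and the heart, where the Dorsocross genes are among the genes that respond.

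Regions came from the authors' peak lists on the dm6 build. Each replicate had a ranked list, which also holds weak regions, and a shorter thresholded list of the regions that passed the authors' reproducibility limit. On the 6 chromosomes the ranked lists held 29964, 59282 and 139013 regions in replicates 1, 2 and 3, and their merged regions covered 7.90, 16.5 and 35.2% of the sequence. The thresholded lists held 1761, 2486 and 1802 regions. The whole series had 4 thresholded lists, of which the one the authors call conservative held 2793 peaks and is used first below. Some of its peaks overlap, and merged they form 2270 places. Shares of this list count all its entries, including weak ones that overlap a stronger one. Each region has a signal, the strength the authors assigned to it. Its scale is unstated and differs between lists. Signals were therefore read only within a list, and ranks from lists of different lengths were not compared as changes. The lists hold no read numbers, so the depth behind a value is unknown.

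The sequences under the peaks are shown for the 6 genes with a conservative peak, because those peaks all lay at a gene start and the motifs searched are read from these bases. Each runs 5′ to 3′ on the strand of the gene, covers the bases within 100 bp of the summit that lie outside transcripts, and comes from the reference sequence of dm6. Capitals mark TATCGATA, the element bound by the factor DREF, in pygo and dsh, and its shorter form TATCGA, on either strand, in pan and Apc. In fz they mark GGTGTGA, the core of the T-box half-site, which reads TCACACC on this strand. The last line gives 27 bases that cross the fz3 TSS and hold both of its TATCGATA copies, while the longer fz3 line has no capitals.
pan (chr4:69190-69325, plus strand): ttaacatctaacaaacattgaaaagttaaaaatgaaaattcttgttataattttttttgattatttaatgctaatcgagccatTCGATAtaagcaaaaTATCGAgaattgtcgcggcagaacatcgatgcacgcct
pygo (chr3R:31580715-31580915, minus strand): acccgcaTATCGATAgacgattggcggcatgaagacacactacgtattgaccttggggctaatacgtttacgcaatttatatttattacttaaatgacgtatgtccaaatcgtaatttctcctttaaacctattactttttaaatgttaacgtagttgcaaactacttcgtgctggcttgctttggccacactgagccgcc
Apc (chr3R:28844749-28844942, minus strand): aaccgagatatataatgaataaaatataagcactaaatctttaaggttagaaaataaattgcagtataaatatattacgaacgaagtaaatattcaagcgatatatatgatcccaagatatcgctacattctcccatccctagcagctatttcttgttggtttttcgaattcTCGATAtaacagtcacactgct
fz (chr3L:14274161-14274342, plus strand): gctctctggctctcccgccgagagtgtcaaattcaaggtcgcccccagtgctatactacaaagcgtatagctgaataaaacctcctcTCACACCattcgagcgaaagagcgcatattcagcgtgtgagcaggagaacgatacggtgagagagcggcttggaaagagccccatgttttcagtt
fz3 (chrX:769828-769944, plus strand): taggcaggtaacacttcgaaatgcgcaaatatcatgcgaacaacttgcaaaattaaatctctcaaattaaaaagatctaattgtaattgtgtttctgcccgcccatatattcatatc
dsh (chrX:11355591-11355791, plus strand): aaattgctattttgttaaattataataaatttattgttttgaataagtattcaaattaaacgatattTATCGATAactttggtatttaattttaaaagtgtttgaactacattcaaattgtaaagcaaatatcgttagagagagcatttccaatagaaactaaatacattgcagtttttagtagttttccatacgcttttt
fz3, both copies (chrX:769941-769967, plus strand): TATCGATAcctggctgctcTATCGATA

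A conservative peak lay in the territory of 6 of the 10 genes, fz3, pan, Apc, pygo, fz and dsh. Among all coding genes 2326 of 13945 had one, a share of 16.7%, and among the 7360 coding genes with a territory at least as long as the shortest of the 10 the share was 15.9%. The territories of the 10 were longer than usual, with a median of 10780 bp against 4328 bp. The remaining 4 genes, wg, arm, arr and sgg, had no conservative peak. All 6 peaks had their summits within 190 bp of the gene's own TSS, on the upstream side. In the conservative list as a whole, 2534 of 2793 peaks (90.7%) lay within 500 bp of a coding TSS, at a median distance of 80 bp. The count of genes depended on the replicates: keeping only peaks overlapped in the thresholded lists of both other replicates left 3 genes without replicate 1 (pygo, Apc and fz3), 2 without replicate 2 (Apc and fz3) and 4 without replicate 3 (pan, Apc, fz and fz3). The same filters left 10.6, 9.69 and 10.8% of all coding genes with a peak, and kept 60.8, 55.3 and 61.9% of all conservative peaks, so the whole list shrank too.

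**Figure D1:**
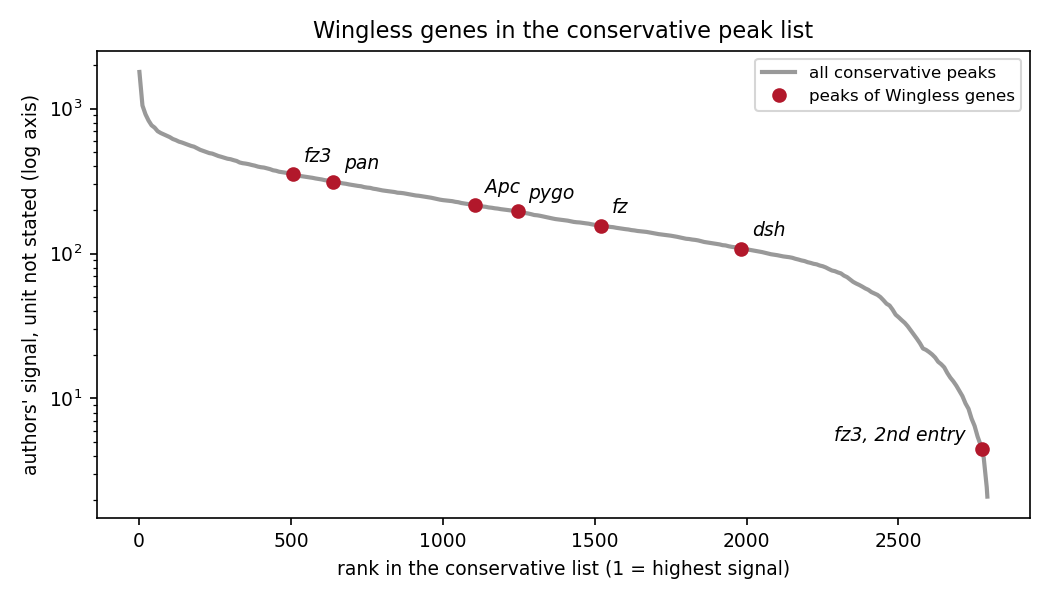
The grey line gives the authors' signal (log axis, unit not stated) of the conservative peaks against their rank in that list, and the red points are the 7 entries of the Wingless genes. The points of fz3, pan, Apc and pygo sit in the upper part of the list, fz and dsh lie below its middle, and a second, weak entry of fz3 lies near the end.

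The ligand gene wg (FBgn0284084, chr2L:7307159-7316265, plus strand) had no region above the threshold in any replicate. At its promoter the ranked lists gave a signal of 7.15 in replicate 1, 30.6 in replicate 2 and 22.7 in replicate 3. These stood at 80.1, 12.0 and 16.4% of their lists from the top. The region was thus among the weaker ones in replicate 1 and in the upper part of the other lists. Among promoter regions it was not unusual there. Over all coding genes with one, the median signal was 27.9 in replicate 2 and 21.3 in replicate 3, little below those of wg. The strongest region in the 28.3 kb territory was another one in each list, 12768 bp upstream of the TSS in replicate 1 (10.4), 8615 bp downstream in replicate 2 (40.8) and 12366 bp downstream in replicate 3 (42.2). They stood at 41.5, 5.88 and 1.72% of their lists from the top, so those of replicates 2 and 3 were high in their lists. Their places differed, but replicate 3 also had a region 8615 bp downstream, with a signal of 24.8 at 12.3% from the top. The nearest conservative peak was 71951 bp from the gene and belongs to CG5149.

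Among the receptors, fz3 had the highest conservative signal of the 10 genes. It encodes a Frizzled-family receptor whose transcription Wingless raises in imaginal discs (FBgn0027343, chrX:769945-784222, plus strand). Its peak at chrX:769805-770011 had a signal of 352 and rank 507 of 2793, with the summit 17 bp upstream of the first TSS. It was present in all 3 thresholded lists, with signals of 57.8, 149 and 146 in replicates 1, 2 and 3. A second conservative entry, chrX:769900-770383, overlapped the first with a signal of 4.47 and rank 2776, so the 7 conservative entries of the 10 genes stand for 6 places. In the ranked lists the fz3 promoter stood at 2.75, 0.908 and 0.280% from the top.

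The gene fz encodes Frizzled, a receptor of Wingless that also orients cells in the plane of an epithelium (FBgn0001085, chr3L:14274343-14368639, plus strand). Its peak at chr3L:14274019-14274502 had a conservative signal of 156, rank 1522, and lay 82 bp upstream of the TSS. Replicates 1 and 2 had it in their thresholded lists, with 33.9 and 54.2. In replicate 3 it was in the ranked list only, with a signal of 31.4 and rank 6945 of 139013, and there a region 2068 bp upstream was slightly stronger (35.3).

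The co-receptor gene arr, which encodes an LRP-type protein, had neither a conservative peak nor a region found in all 3 ranked lists (FBgn0000119, chr2R:13453640-13483229, minus strand). Bases nearer to the TSSs of other genes leave it a territory of 4025 bp, the shortest of the 10. A region near its TSS had a signal of 15.6 in replicate 1, at 14.8% of the list, and 17.4 in replicate 2, at 51.7%. Replicate 3 had no summit in the territory, although 31 of its regions had a summit in the gene body. A conservative peak of signal 121 lies inside the arr body, but its nearest TSS is that of CG43192.

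The cytoplasmic genes differed from one another. The gene dsh encodes the adaptor that links receptors to the destruction complex (FBgn0000499, chrX:11355881-11358724, plus strand). Its peak at chrX:11355449-11355932 had the lowest signal of the 6, 108 with rank 1983, and lay 190 bp upstream of the TSS. It was overlapped in no replicate's thresholded list. The ranked lists had a region there in each replicate, with signals of 26.8, 38.3 and 46.2, at 6.57, 6.70 and 1.44% from the top.

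Apc encodes a scaffold of the destruction complex (FBgn0015589, chr3R:28832301-28844748, minus strand). Its peak at chr3R:28844600-28845083 had a conservative signal of 216, rank 1105, and lay 94 bp upstream of the TSS. It was in all 3 thresholded lists, with 49.4, 73.2 and 81.5. The TSS of spg, a guanine nucleotide exchange factor gene, lay 428 bp from the summit. Among the 6 genes, Apc and fz3 were thus the ones whose peak passed the threshold in every replicate.

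The kinase gene sgg, the fly GSK-3, had 11 annotated TSSs spread over 33.9 kb and no conservative peak (FBgn0003371, chrX:2633952-2679553, plus strand). Its strongest promoter regions had signals of 18.7, 26.8 and 23.9, at 10.5, 17.7 and 14.0% from the top. Those of replicates 1 and 3 lay 198 and 452 bp upstream of the same inner TSS, 12685 bp downstream of the first one, and that of replicate 2 lay 96 bp downstream of another, 9065 bp from the first. At the former TSS replicate 2 had a region as well, with a signal of 24.3. The strongest region of the territory was not a promoter region in replicate 2 (37.7) or in replicate 3 (28.0). The nearest conservative peak, that of Tsp3A, was 13975 bp away.

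Among the nuclear factors, arm had no conservative peak (FBgn0000117, chrX:1891401-1900646, minus strand). Its strongest promoter regions had signals of 8.50, 33.7 and 19.6, at 61.9, 9.08 and 24.5% from the top, and none was above the threshold. In replicate 1 the strongest region of the territory lay 2759 bp downstream of the first TSS (11.0). In replicate 2 it lay 2751 bp downstream (34.5), and in replicate 3 it was the promoter region. A conservative peak of signal 141 lay 1054 bp beyond the gene body, but it was assigned to mRpL16, whose TSS is nearer.

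The gene pan encodes the TCF factor through which Wingless targets are bound (FBgn0085432, chr4:69326-114270, plus strand). Its peak at chr4:69048-69531 had a conservative signal of 314 and rank 640, with the summit 36 bp upstream of the first TSS. The thresholded lists had it in replicate 1 with 52.4 and in replicate 2 with 185, where it was the strongest promoter region of the 10 genes. Replicate 3 had no region there even in its ranked list, and the peak was also missing from the series-level lists of 2301 and 2456 peaks, as was that of fz.

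The gene pygo encodes a PHD-finger protein that binds methylated histone tails (FBgn0043900, chr3R:31575835-31580699, minus strand). Its peak at chr3R:31580573-31581056 had a conservative signal of 196, rank 1246, and lay 116 bp upstream of the pygo TSS and 136 bp from the TSS of rod, a kinetochore gene on the other side. The regions that overlap it had signals of 26.8, 85.6 and 78.6, above the threshold in replicates 2 and 3. In replicate 3 the summit of that region was nearer to rod, so by the territory rule pygo had no promoter region there. Which of the neighbouring genes such a peak belongs to cannot be told apart.

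Of the strongest entry of each of the 6 genes, 2 (fz3 and Apc) were overlapped in all 3 thresholded lists. Among all 2793 conservative peaks, 1498 (53.6%) were. That share counts every entry, overlapping ones included, and not only the strongest of each place. A single one, dsh, was overlapped in none, against 388 (13.9%). A peak with no ranked region at all in replicate 3 was rare in the list, 70 of 2793 (2.51%), and pan was such a peak. None of the 6 lacked a ranked region in replicate 1 or 2, where the shares of the list were 0.752 and 0.322%. The other series-level lists gave the same genes or fewer. The list of 3513 peaks gave the same 6 genes, against 21.3% of coding genes. The list of 2301 peaks gave 4 (pygo, Apc, fz3 and dsh), against 14.0%, and the list of 2456 peaks gave the same 4, against 15.4%.

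With all weak regions counted, a promoter region in the territory was found for all 10 genes in replicate 1, all 10 in replicate 2 and 7 in replicate 3. The shares over all coding genes were 45.6, 60.1 and 74.5%, so the longer the list, the more genes had one. In replicate 3 the 7 of 10 stood near the share of all coding genes. Of the genes without one there, pygo had a region over its peak with a signal of 78.6. The summit of that region was nearer to rod. Of the members with a region, 8, 8 and 6 were above the median promoter signal of the same list, which was 14.9, 27.9 and 21.3. In replicate 1 the order from the highest signal was fz3, pan, Apc, fz, dsh, pygo, sgg, arr, arm and wg. In replicate 2 it was pan, fz3, pygo, Apc, fz, dsh, arm, wg, sgg and arr. In replicate 3 it was fz3, Apc, dsh, fz, sgg, wg and arm. The 6 genes with a conservative peak held the first 6 places in replicates 1 and 2, and the 4 of them with a region held the first 4 in replicate 3. The conservative list was made from the same samples, so this order describes the lists and is no independent evidence. With 1 value per replicate on separate scales, neighbours in these orders were not tested against each other.

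**Figure D2:**
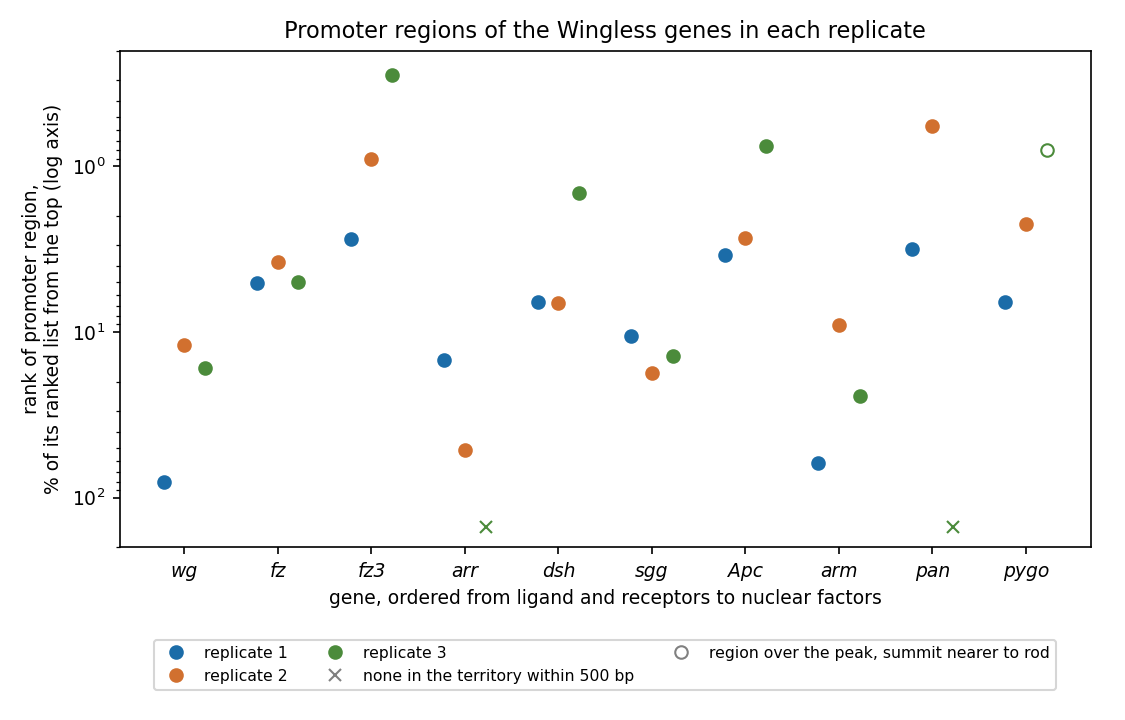
Each point is the strongest ranked region within 500 bp of an own TSS of a gene, placed by its rank as a percentage of that replicate's ranked list (log axis, best at the top). The promoters of fz3 and Apc are within the top 3.43% in every replicate, wg and arm reach 80.1 and 61.9% in replicate 1, and crosses mark arr and pan, which have no such region in replicate 3. The open circle is the replicate 3 region over the pygo peak, whose summit is nearer to rod.

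The gene pan showed 2 unlike pictures in the replicates. In replicate 1 its territory held 3 regions, all around the promoter, and no further summit was found for 51.8 kb downstream of the first TSS. In replicate 2 it held 4, of which 2 lay just over 3 kb downstream with signals of at most 12.5, and the next 41.7 kb of the gene were empty. Replicate 3 held 27 regions in the territory and 31 with a summit in the 44.9 kb gene body, with a median signal of 16.4 and a highest signal of 35.4. It had none within 500 bp of the first TSS, where the nearest summits were 18.3 kb upstream and 3127 bp downstream. No region of pan was shared by all 3 replicates. Empty stretches of at least 40 kb between neighbouring summits were not peculiar to pan, since replicate 1 had 164 of them, 3 on chromosome 4, and replicate 2 had 140, 2 of them on chromosome 4. Replicate 3 had 25, and none on chromosome 4. Chromosome 4 as a whole held 277, 434 and 1035 ranked regions in replicates 1, 2 and 3. The cause of the pan pattern was not tested.

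**Figure D3:**
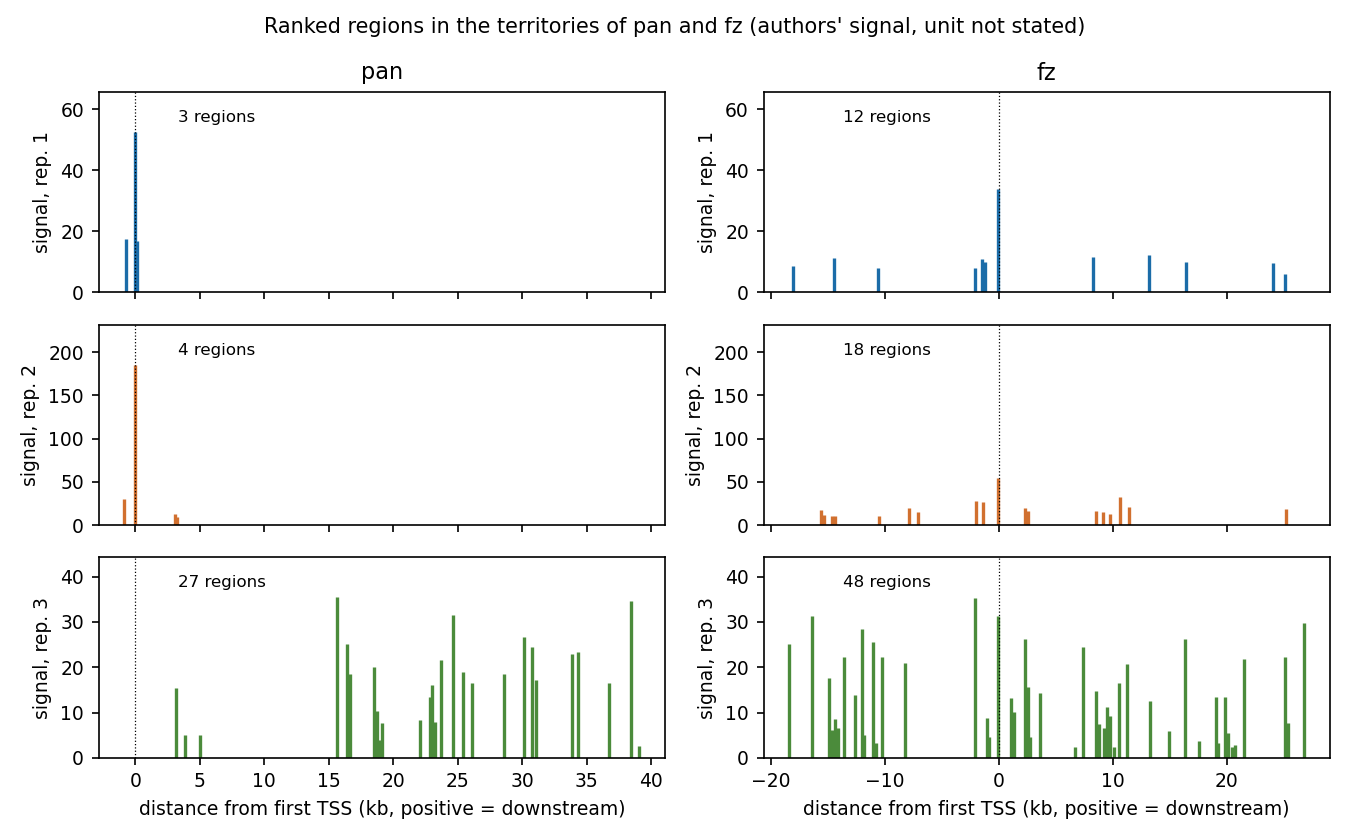
Vertical lines are the ranked regions in the territories of pan (left) and fz (right) by distance of the summit from the first TSS, and their height is the authors' signal, on a separate scale for each replicate. In pan, replicates 1 and 2 have a strong region at the TSS and little beyond, while replicate 3 has regions across the gene body and none at the TSS; in fz all 3 replicates have a region at the TSS.

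Weaker recovery was described by the regions found in all 3 ranked lists, each counted as a region of replicate 1 overlapped by at least 1 bp in both other lists. There were 13522 of them, and 31 had a summit in the 202 kb of the territories. A shared region was present for 8 of the 10 genes, against 54.2% of coding genes, and 8 had one within 500 bp of an own TSS, against 31.7%. The 2 without any were pan and arr. These shares were not taken over genes of like territory length, and the territories of the 10 were longer than usual. With only the first TSS of each gene, sgg dropped out of the promoter count and 7 genes remained. With summits required to lie within 150 bp of that of replicate 1, 21 regions were shared. In that setting wg dropped out of the promoter count and 7 genes remained. Per 10 kb of territory the 10 genes held 1.53 shared regions and all coding genes 1.11. The count of shared regions depended on replicate 1, which has the shortest list: without it 77 regions were shared by the others. The number of genes with a shared promoter region was 8 to 10 with any replicate left out. Shares over all coding genes were not counted with a replicate left out, with the first TSS only or with summits within 150 bp. How these counts stand against other genes is therefore unknown.

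Of the 31 shared regions, 10 lay within 500 bp of an annotated TSS, 5 in coding exons, 9 in introns and 7 between genes. The same split over all shared regions was not counted. The coding-exon regions 834 bp upstream of sgg and 2111 bp upstream of dsh lay in exons of neighbouring genes. A conservative peak overlapped 5 of the 31, the promoter regions of fz3, Apc, pygo, fz and dsh. The other 26 had signals of 6.01 to 18.7 in replicate 1, 9.65 to 37.7 in replicate 2 and 6.23 to 35.3 in replicate 3. The largest numbers were in the long territories of sgg (8 regions) and fz (7). The genes wg and arm had 4 each, pygo 3, Apc and dsh 2 each and fz3 1. In wg, 3 of the 4 lay upstream of the gene, 2302, 5121 and 12768 bp from the TSS. In fz, 4 lay upstream of the promoter region, 1187 to 14436 bp from the TSS, and 2 lay in introns, 8306 and 25092 bp downstream. In sgg a region 12487 bp downstream of the first TSS, 198 bp upstream of an inner TSS, was the strongest in replicate 1 (18.7). In pygo the 2 regions in a coding exon lay 1465 and 1903 bp downstream and were overlapped by the same region in replicate 2 and in replicate 3, so they do not stand for separate places there. The summits in Apc lay 89 bp upstream of its first TSS and 317 bp upstream of the other one.

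**Figure D4:**
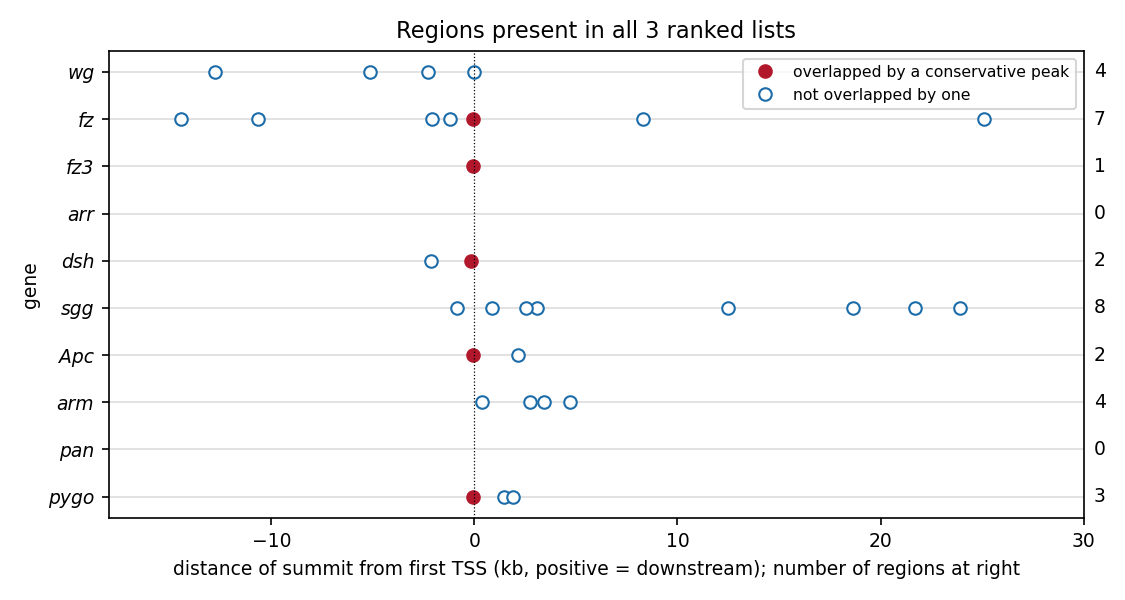
Circles are the summits of the 31 regions present in all 3 ranked lists, by distance from the first TSS of the gene, with the number per gene at the right. The filled circles, which are overlapped by a conservative peak, all sit at the TSS of fz, fz3, dsh, Apc and pygo; open circles extend up to 14.4 kb upstream and 25.1 kb downstream in fz.

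The rest of the pathway was read from 43 further genes listed by role. A conservative peak was present for 14 of them, against 16.7% of coding genes. No ligand of 6 had one. Among secretion and extracellular genes 2 of 7 did, the glypican gene dlp (262, 111 bp upstream of its TSS) and the heparan sulfate enzyme gene sfl (157, 4 bp upstream). Of the receptors fz2 and fz4, fz4 had one, with a signal of 146 at 7 bp from the TSS. Cytoplasmic genes had 4 of 9, led by the kinase gene CkIalpha, whose product primes Armadillo for destruction (481, rank 249, all 3 thresholded lists). The others were slmb, a ubiquitin ligase subunit (164), gish, a casein kinase (89.7), and Apc2, the paralogue of Apc, whose only entry was weak (7.75, rank 2736). That entry was nevertheless overlapped in all 3 thresholded lists, while no shared region had its summit in the Apc2 territory.

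Nuclear genes had 6 of 9. These were hyx, a subunit of the Paf complex (386), the Mediator genes kto (305) and skd (95.1), the co-repressor gene gro (168), the histone acetyltransferase gene nej (127), and ebd1, a partner of Armadillo and Pangolin (108). Known target genes had 1 of 10, the limb homeodomain gene Dll (117, 100 bp upstream). The peaks of nej, gish and ebd1, like that of dsh, were overlapped in no thresholded list of a replicate. Other genes shared the promoter in 4 cases, RecQ5 with dlp, Vps8 with sfl, CG5793 with slmb and mRpS24 with Apc2. Genes without a peak included Axn, CtBP, dally, dco and en. The receptor gene fz2, singled out after its values were seen, had no conservative peak but 15 shared regions in a territory of 93.0 kb. The count of 14 fell to 8 without replicate 1, 7 without replicate 2 and 8 without replicate 3, beside the smaller shares of coding genes given above for the same filters.

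**Figure D5:**
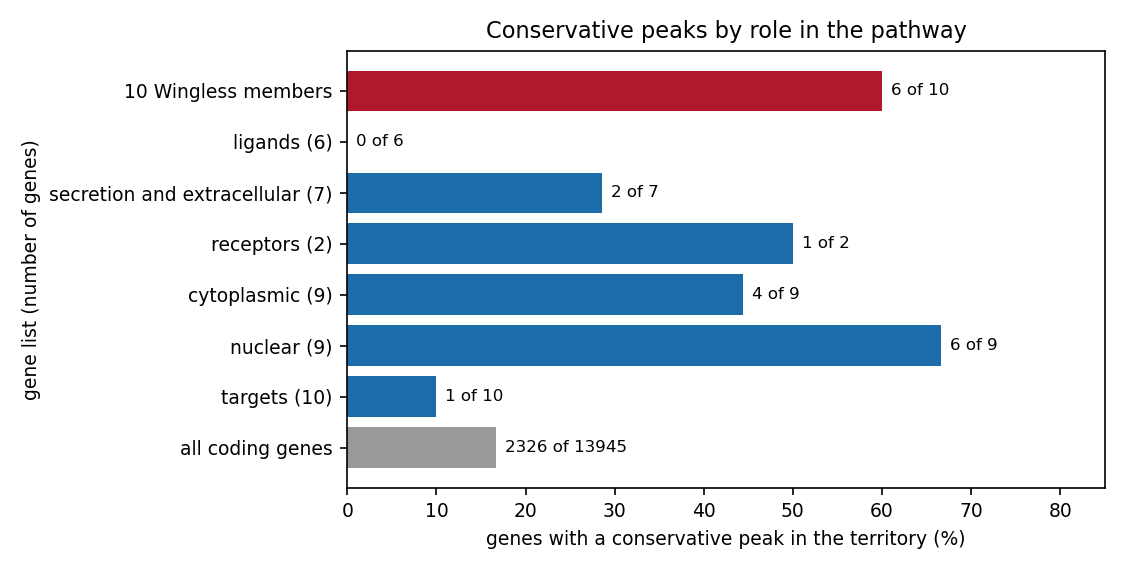
Bars give the percentage of genes in each list with a conservative peak in the territory, with the counts beside them. The 10 members have 6, the other nuclear genes 6 of 9, the other ligands 0 of 6 and the targets 1 of 10, against 16.7% of all coding genes; the lists are short and were not tested.

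Motif letters were searched on either strand in the 50 bp to each side of a summit, and a match is a description of the letters in that window. TATCGATA was present at 2 of the 6 strongest member peaks, fz3 and dsh. Among all 2793 conservative peaks, overlapping entries included, 513 (18.4%) held it. The share was 5.56% for windows of the same length centred on the first TSS of coding genes. The fz3 peak held 2 copies, centred 16.5 and 35.5 bp from the summit. The first copy spans the TSS, from 4 bp before to 3 bp after it, and the second runs from 15 to 22 bp after it. In dsh the copy lay 29.5 bp from the summit and 216 to 223 bp upstream of the TSS. Within 100 bp, where 26.4% of peaks held it, pygo was added with a copy 89.5 bp from the summit on the side of rod. The shorter TATCGA, part of every TATCGATA and added after values were seen, was also present within 100 bp in pan and Apc, against 55.5% of all peaks. In pan, copies within that window lay 0.5, 14.5 and 41.5 bp from the summit. The last runs from 3 to 8 bp after the TSS, outside the sequence printed above.

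The T-box half-site core GGTGTGA, the motif closest to what Doc3 itself is known to bind, was present at 1 of the 6, fz, where it lay 10 bp from the summit and 89 to 95 bp upstream of the TSS. Of all conservative peaks 32 held it (1.15%), against 1.34% of TSS windows. The shorter GGTGTG, which it contains, was found at the same peak only, against 3.76% of peaks. The Pangolin motif CTTTGA was found at none of the 6 within 50 or 250 bp, where 4.22 and 23.4% of all peaks held it, and the helper site GCCGCC at none within 50 bp (4.69%) and at pygo within 100 bp (8.49%). The GAGA factor motif GAGAG was present at fz, fz3 and dsh (9.60% of peaks) and the Zelda motif CAGGTA at fz3 (2.43%). The core promoter element GGTCACACT was found at none of the 6 within 50 bp (2.43%), and within 250 bp at pygo and dsh (8.92%). No match says only that these letters are not in the window.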

How the data were processed

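Peak lists from ChIP-seq of 3 biological replicates of Doc3-eGFP embryos were used as deposited, on dm6 per the labels. The signal is the authors' deposited strength of each region, on a scale the notes do not state. Per the deposited notes, the lists were derived from the samples' alignments and from 1 further file that also made fold-over-control tracks, not analysed here. For aligner and peak caller, names and versions were not given in the sources used here. Depth is unknown.

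Territories and TSSs came from Ensembl release 115 (BDGP 6.54). Of 13944 coding genes matched by symbol to RefSeq's release 6 annotation, 13932 had identical ends, and all regions lay inside the chromosome ends. A region belonged to a gene when its summit lay in the territory. Python 3.11.15, numpy 2.4.6, pandas 2.3.3 and matplotlib 3.10.9 were used, and the overlap and territory steps were tested on simulated data. No test was made: the main counts of genes stand beside the same counts over all coding genes. The members, lists and motifs were chosen with earlier results of these data known. The genes named are the members, other pathway genes with a conservative peak, up to 5 without one (first in the alphabet) and genes with a TSS within 500 bp of a member's summit. Alternatives were other lists, overlaps, reaches, TSS choices, windows and leaving out each replicate. The replicate numbers are those of the labels.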

Additional observations from a re-analysis of the deposited data

How the results depend on the processing

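Across 63 alternatives of the counts reported, 45 stayed within 1.5 times of the value given and 18 did not. Leaving out a replicate gave 2 to 4 members with a conservative peak, 3 to 5 conservative peaks in their territories and 7 to 8 other pathway genes with a peak. It also gave 37 to 77 shared regions. Within these ranges, the values without replicate 3 for members and their peaks, and those without replicate 2 or 3 for shared regions, stayed within 1.5 times. The stronger 50% of the conservative list held 4 peaks of members and peaks of 4 other pathway genes, and the stronger 50% of each ranked list gave 8 shared regions. With gene bodies only, which cut off the sequence upstream of the TSS where the peaks lie, 1 member (fz3) had a peak, its weak second entry of signal 4.47, and so did 9 other pathway genes, and 16 shared regions were left. With bases nearer to other genes kept, 9 members and 28 other pathway genes had a conservative peak. Member territories then held 38 conservative peaks and 119 shared regions. Shares over all coding genes were not counted for the stronger 50%, gene bodies only, bases kept, or 5 kb or 50 kb either side. Nor were they counted for shared regions with a replicate left out. How these counts stand against other genes is therefore unknown. The number of members with a conservative peak was 4 to 6 in the other series-level lists and 6 with 5 kb or 50 kb either side. No paired analysis was possible because all samples form 1 group. The ranked lists held 29964 to 139013 regions, and how far depth sets their length was not tested.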
